A study of Mus musculus with 6 samples.

Results

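Myc, 3 of its network partners and 36 factors that build ribosomes, 40 genes in all, were followed in messenger RNA of DN3 thymocytes. The genes were taken by Ensembl gene ID from the deposited tables, where 12235 genes had a level. Of the 40 genes, 38 had a level and 36 entered the test, beside 9198 genes tested in all. DN3 cells are early T cell precursors of the mouse thymus, sorted here as CD25+ cells without CD4, CD8, CD44 or lineage markers. They came from 5-week-old mice, either WT or Hspa9 cKO, without treatment. Each genotype had 3 libraries. Hspa9 encodes GRP75, the HSP70-type chaperone of the mitochondrial matrix. The study asked what GRP75 does in early thymocyte development. The sources used here do not name the strain, the Cre driver, the cells in which it acts or any Cre or floxed allele carried by the WT mice. Nothing in the labels ties a library to its own animal, and the p-values therefore cover the spread among these 6 libraries, part of which can be technical.

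Myc pairs with Max, and the pair binds E-boxes of the sequence CACGTG near gene starts. Mxd4 and Mxi1 pair with Max too and act at the same sites as repressors. Ribosomes are assembled in the nucleolus: RNA polymerase I makes the precursor ribosomal RNA, small nucleolar ribonucleoproteins (snoRNPs) modify it and many assembly factors cleave and fold it into the small and the large subunit. Many genes of this pathway are known targets of Myc. In the thymus, cells that pass beta selection at the DN3 stage grow and divide, and Myc is known to take part in that growth.

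The E-boxes of the members are shown because they are the sites through which Myc and its partners are known to act. RefSeq promoters (build GRCm38.p6, from 250 bases before the gene's start to 50 after it) were at hand for 35 of the 40 genes. Entries were missing for Myc, Npm1, Fbl, Rrp12 and Bop1. The letters CACGTG, which read the same on both strands, lay in the promoters of 10 of these 35 genes (28.6%), against 8.09% of the 27025 genes with an entry and 12.7% of the tested genes with one. The 10 sites follow with up to 12 bases on either side, the E-box in capitals, each written 5′ to 3′ on the strand of its gene and ended where the promoter window ended.
Mxd4: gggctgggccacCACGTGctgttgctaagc
Max: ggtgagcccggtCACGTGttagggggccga
Mybbp1a: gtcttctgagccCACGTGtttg
Utp4: tgcgcaagcgcgCACGTGgggccggggcgg
Utp20: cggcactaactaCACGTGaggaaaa
Wdr43: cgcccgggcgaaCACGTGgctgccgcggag
Ltv1: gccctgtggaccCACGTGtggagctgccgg
Tsr1: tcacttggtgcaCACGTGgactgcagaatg
Nop2: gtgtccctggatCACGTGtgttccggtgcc
Pes1: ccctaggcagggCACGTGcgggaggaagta
On the plus strand the windows were chr6:125131811-125131840 for Nop2, chr8:106893643-106893672 for Utp4, chr11:3963965-3963994 for Pes1, chr11:72441355-72441376 for Mybbp1a, chr11:74898092-74898121 for Tsr1 and chr17:71616220-71616249 for Wdr43. On the minus strand they were chr5:34187912-34187941 for Mxd4, chr10:13193092-13193121 for Ltv1, chr10:88826765-88826789 for Utp20 and chr12:76962234-76962263 for Max. In Max the E-box straddled the start itself. A match of letters is a description of the window and shows no binding.

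A further motif was searched because it is common in promoters of housekeeping genes: CCGGAAG, the core bound by ETS factors, on either strand. It lay in the promoters of 13 of the 35 genes (37.1%), against 9.93% of all genes with an entry and 23.5% of those tested. Of these genes, Nhp2 and Utp4 were called lower in Hspa9 cKO. Gar1, Polr1e, Nop2, Nip7, Ppan, Ltv1, Polr1c, Wdr74 and Nolc1 were not called, and Tsr1 and Heatr1 were not tested. Levels were not compared by this core. The sites of Nhp2 and Utp4, just before their starts, are shown here with the core in capitals. In Utp4 the core lies on the opposite strand and is read as CTTCCGG.
Nhp2: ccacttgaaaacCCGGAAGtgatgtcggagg
Utp4, first site: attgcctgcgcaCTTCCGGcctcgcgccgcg
Utp4, second site: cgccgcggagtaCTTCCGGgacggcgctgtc
Among tested members with a promoter entry, the median difference was similar with and without an E-box. Npm1, Fbl and Bop1, all called lower, had no entry and are in neither set. Both sets are small, and no test was made between them. The 9 tested members with an E-box had 1 lower call and a median log2 difference of -0.22, and the 22 tested members with an entry and no E-box had 3 lower calls and a median of -0.23.

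Levels are given in FPKM, which divides fragments by the length of the transcript and the size of the library, summed over a gene's transcript starts. Read depth is unknown, since the tables hold no counts. A gene counts as called where limma on log2(FPKM + 1) gave an adjusted p under 0.05. Differences are Hspa9 cKO minus WT on that scale, where the added 1 shrinks the change of genes with low levels. Over all 9198 genes, 773 were called higher and 516 lower with a median of 0.06, and the split was 609 to 687 after rescaling by trimmed means and 616 to 666 after rescaling by median ratios. The summed level of Hspa9 did not separate the genotypes, at 105 to 122 FPKM in WT and 109.7 to 124 in Hspa9 cKO (adjusted p = 0.951). Transcripts that join exons 1 and 5 through exons 2 to 4 were at 105 to 109 FPKM in WT and 16.8 to 25.2 in Hspa9 cKO, and those that skip them were at 0 to 17.0 and 68.9 to 89.4 FPKM. Of 14 DN3 markers, 13 were listed (Gata3 was not), with summed levels of 2312 to 3082 FPKM in WT and 2997 to 3379 in Hspa9 cKO. The summed markers that the gate removes (Cd4, Cd8a, Cd8b1 and Cd44) were at 7.62 to 8.85 FPKM and 3.21 to 5.15.

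In Hspa9 cKO cells, transcripts of several ribosome assembly factors were lower, while those of Myc lay higher without passing the test. Of the 36 tested genes, 7 fell and 0 rose, against 5.61% called lower and 8.4% called higher among all genes. The 7 were Npm1, Ddx21, Fbl, Nhp2, Utp4, Bop1 and Rrp1b, at 66.4% to 78.3% of their WT means. At an unadjusted p under 0.05 in limma, 13 genes were lower and 2 were higher (Myc and Nop58). The difference was below 0 for 30 of the 36 genes, against 43.3% of all genes. Groups did not overlap, with Hspa9 cKO lower, for 19 of the 36 (15.7% of all genes), and did not overlap in the other direction for 2 (23.2% of all genes). The median difference over the 36 was -0.26, and they ranged from -1.27 (Gar1) to 0.86 (Nop58). Mean levels ran from 6.27 FPKM (Polr1a) to 375.5 FPKM (Npm1). The summed level of the genes was 1899 to 1941 FPKM in the WT libraries and 1454 to 1658 in the Hspa9 cKO libraries. In bulk RNA, fewer cells that express a gene and less of its RNA per cell cannot be told apart.

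**Figure D1:**
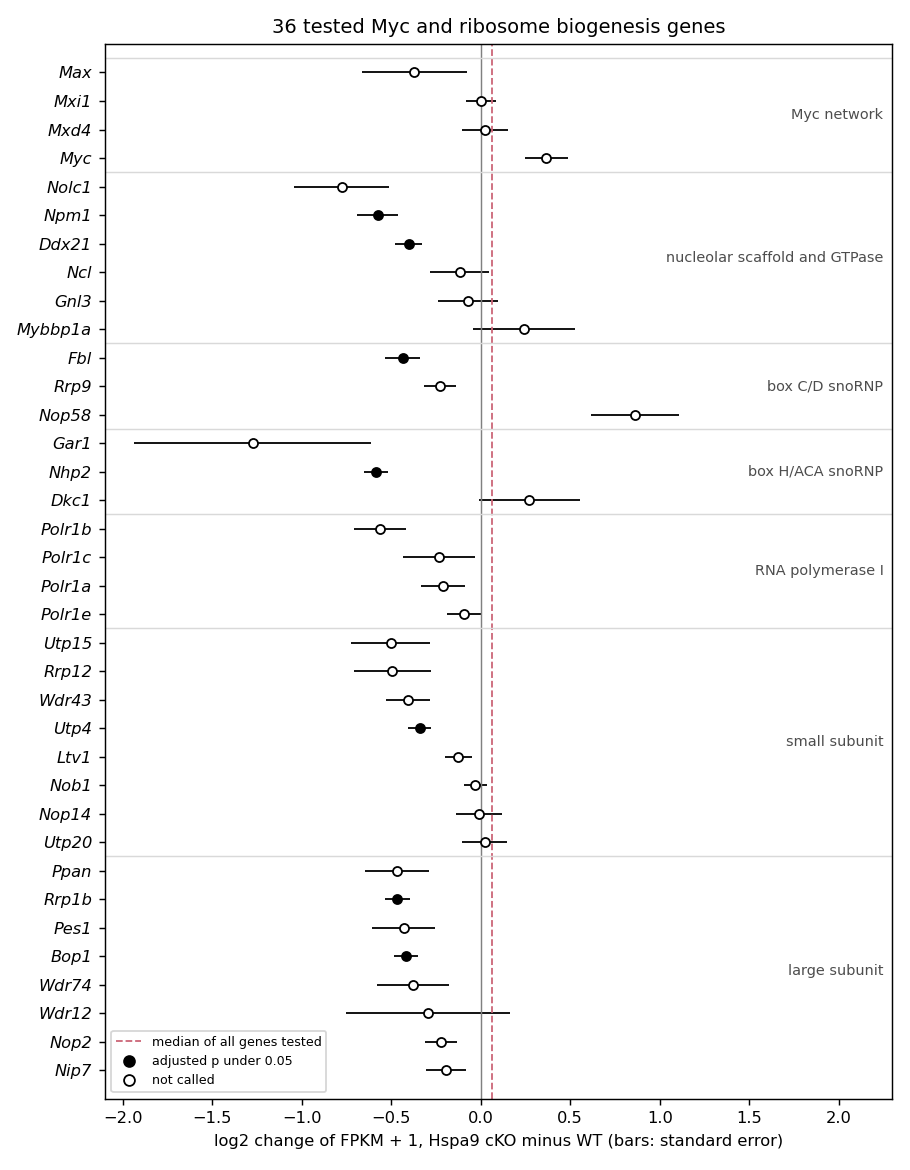
Difference of each tested gene in Hspa9 cKO against WT (horizontal axis, log2(FPKM + 1), bars are standard errors of the limma fit, 3 libraries per group), ordered by role, with the median of all tested genes as a dashed line. The points of 30 of 36 genes lie left of 0, and the 7 called genes are filled.

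The count of 7 depended on having all libraries. It was 3, 4 and 5 without WT replicates 1, 2 and 3, and 2, 3 and 1 without Hspa9 cKO replicates 1, 2 and 3. Over all genes, 220 of 9125, 323 of 9131 and 300 of 9124 were called lower without WT replicates 1, 2 and 3. Without Hspa9 cKO replicates 1, 2 and 3 it was 217 of 9020, 222 of 9003 and 202 of 9014. Nhp2 was called in each of these 6 fits. Rrp1b was not called without Hspa9 cKO replicate 3, and Bop1 was not called without Hspa9 cKO replicate 1 or without replicate 3. Npm1 and Ddx21 were called only without WT replicate 3, Fbl was called only without WT replicate 2, and Utp4 was called in none of the 6. Leaving out a library also leaves fewer values to estimate the spread. With the replicate number as a block, 0 of the 36 were called lower, and 84 of 9198 over all genes. Nhp2 then had an adjusted p of 0.0524 in limma. The block too leaves less to estimate the spread.

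Among the Myc network genes, 0 of 4 were called by limma (1 at an unadjusted p under 0.05, Myc), and their median difference was 0.01. Myc, the transcription factor (chr15:61985391-61990374, plus strand, build mm10), had 78.2, 102 and 99.98 FPKM in WT replicates 1 to 3 and 112, 125 and 124 FPKM in Hspa9 cKO replicates 1 to 3. All 3 Hspa9 cKO values lay above all 3 WT values. The means were 93.5 ± 13.3 and 120.1 ± 7.08 FPKM (SD, n = 3), a difference of 0.37 with a standard error of 0.12 that did not pass the test (limma, adjusted p = 0.0987). Without WT replicate 1, the lowest library, the difference was 0.24 (adjusted p = 0.149). Nearly all of this signal came from the start at the first annotated exon. From transcript ends, the difference was 0.34 (adjusted p = 0.0784).

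Max, the obligate partner of Myc and of the Mxd proteins, had 35.2, 34.7 and 39.6 FPKM in WT and 17.4, 41.1 and 30.2 FPKM in Hspa9 cKO. Hspa9 cKO replicate 1 was the lowest library and replicate 2 the highest, so the groups overlapped (difference -0.37, standard error 0.29, adjusted p = 0.436 in limma). The difference of Max was -0.045 without Hspa9 cKO replicate 1 and -0.64 without replicate 2. Mxi1, a repressor of the Mxd family, was level, with 13.8, 15.1 and 13.0 FPKM in WT and 14.3, 13.9 and 13.7 FPKM in Hspa9 cKO. Its groups overlapped, with means of 14.0 ± 1.06 and 14.0 ± 0.274 FPKM (SD, n = 3).

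Mxd4, another repressor of that family, had 36.01, 43.1 and 47.3 FPKM in WT and 45.3, 38.1 and 44.8 FPKM in Hspa9 cKO, and the groups overlapped. Only 80.7% of its start signal lies at exon edges of Mxd4, and the rest at starts that the tables file under the same ID. Counted at its own edges alone, Mxd4 had 35.1, 30.5 and 29.4 FPKM in WT and 36.3, 37.3 and 36.9 FPKM in Hspa9 cKO. There the Hspa9 cKO values all lay above the WT values, with a difference of 0.22 that did not pass the test (limma, adjusted p = 0.156).

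**Figure D2:**
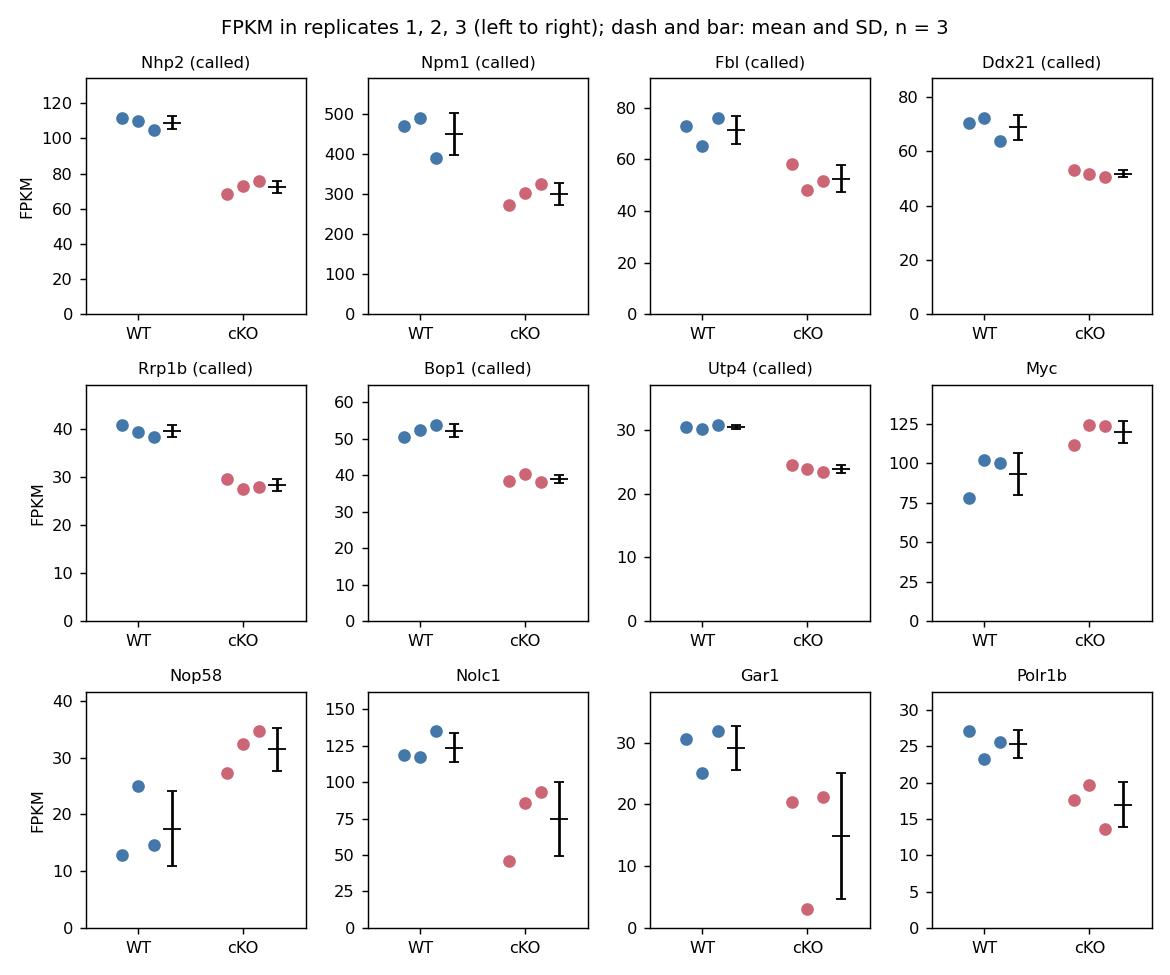
Levels of 12 of the genes in FPKM (vertical axes from 0), with a point for each library in the order of its replicate number and the mean and SD (n = 3) beside them, WT in blue and Hspa9 cKO in red. In Myc and Nop58 all Hspa9 cKO points lie above all WT points, and in the other 10 genes, 7 of them called, all lie below.

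Max is made in a long and a short form that differ by a small coding exon near the start of the protein. The exon is exon 2 of 5 of the longer transcript, 27 bases long and in frame, at chr12:76961263-76961289 on the minus strand (mm10). It is shown in capitals between the 18 coding bases before it and the 18 after it, as the GENCODE M21 transcript has them.
Max exon 2: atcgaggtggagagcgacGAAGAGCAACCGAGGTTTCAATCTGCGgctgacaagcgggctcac
Transcripts with the exon were at 14.4, 16.0 and 14.0 FPKM in WT and 5.87, 7.92 and 8.02 FPKM in Hspa9 cKO, and the groups did not overlap. Transcripts without it were at 20.7, 18.4 and 25.4 FPKM in WT and 11.3, 33.0 and 22.0 FPKM in Hspa9 cKO, where the groups overlapped. The exon was thus included in 41.0%, 46.6% and 35.5% of Max transcripts in WT and in 34.1%, 19.3% and 26.7% in Hspa9 cKO. The means were 41.0% ± 5.51 and 26.7% ± 7.38 (SD, n = 3), with p = 0.1 in a two-sided exact permutation test, the smallest p that 3 against 3 allows. In the limma fit over all splicing ratios the difference of its log2 ratio was -0.88 (adjusted p = 0.576). This exon was chosen for description after its values were seen.

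**Figure D3:**
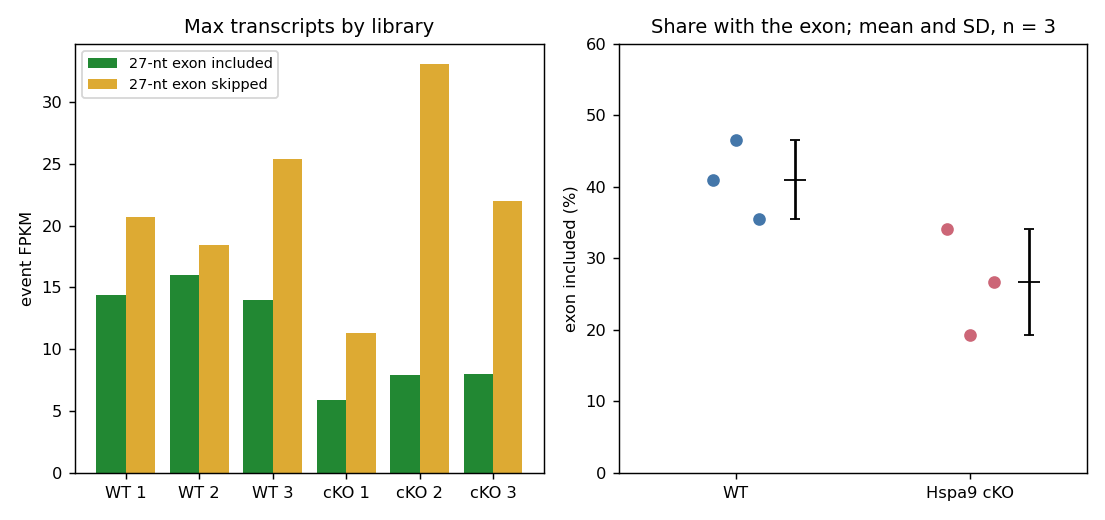
Max transcripts with (green bars) and without (yellow bars) the 27-base exon 2, in FPKM per library, and beside them the percentage that include it, with a point for each library and the mean and SD (n = 3). All 3 Hspa9 cKO libraries are below all WT libraries for the included form, whereas the skipped form overlaps between groups.

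The nucleolar scaffold and GTPase group held 2 lower genes of 6 tested (5.61% of all genes), with a median of -0.26. That count is too small to tell from the share of all genes. Npm1, nucleophosmin, which organises the granular part of the nucleolus (chr11:33152287-33163206, minus strand), had 470.0, 491 and 389.6 FPKM in WT and 273, 303 and 327 FPKM in Hspa9 cKO. The groups did not overlap. Its mean fell from 450.2 ± 53.5 to 301 ± 26.9 FPKM (SD, n = 3), 66.8% of the WT level, with a difference of -0.58 (standard error 0.11, adjusted p = 0.0264 in limma). Ddx21, an RNA helicase of the nucleolus (chr10:62580251-62602281, minus strand), had 70.5, 72.4 and 63.7 FPKM in WT and 53.2, 51.6 and 50.6 FPKM in Hspa9 cKO. The 3 Hspa9 cKO values of Ddx21 lay close together and below every WT value, with a difference of -0.40 (adjusted p = 0.0221 in limma).

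Nolc1, a chaperone of snoRNPs, had 119, 117 and 135 FPKM in WT and 46.0, 85.6 and 93.2 FPKM in Hspa9 cKO. Its groups did not overlap and Hspa9 cKO replicate 1 stood lowest by far. The difference of -0.78 with a standard error of 0.27 did not pass the test (limma, adjusted p = 0.107), nor did that of -0.46 without this library (adjusted p = 0.0629). Part of that signal belongs to starts of the neighbouring gene Pprc1, and at its own exon edges the difference of Nolc1 was -0.84 (adjusted p = 0.0755). Mybbp1a, a nucleolar protein named for its binding to Myb, had 73.3, 42.6 and 81.1 FPKM in WT and 84.0, 56.9 and 88.4 FPKM in Hspa9 cKO. WT replicate 2 and Hspa9 cKO replicate 2 were both low in Mybbp1a, and the groups overlapped (difference 0.24, adjusted p = 0.607, and -0.09 from transcript ends). Ncl, nucleolin, differed by -0.12 and Gnl3, the nucleolar GTPase nucleostemin, by -0.07, each with overlapping groups and an adjusted p of 0.667 and 0.812 in limma. Ncl was at 108 FPKM in Hspa9 cKO replicate 1 and at 149.9 to 168 FPKM in the other 5 libraries.

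The box C/D snoRNP, which places methyl groups on ribosomal RNA, had 1 lower gene of 3 tested (5.61% of all genes). That count is too small to tell from the share of all genes. Fbl, fibrillarin, the methyltransferase of the particle (chr7:28169710-28179269, plus strand), had 72.9, 65.4 and 76.1 FPKM in WT and 58.1, 48.1 and 51.6 FPKM in Hspa9 cKO. The groups did not overlap, with means of 71.5 ± 5.52 and 52.6 ± 5.05 FPKM (SD, n = 3) and a difference of -0.44 (standard error 0.10, adjusted p = 0.0379 in limma). Without a filter on low genes Fbl was not called. Nop58, a core protein of the same particle, had 12.9, 25.1 and 14.5 FPKM in WT and 27.3, 32.5 and 34.6 FPKM in Hspa9 cKO.

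Nop58 thus stood opposite to Fbl, with every Hspa9 cKO value above every WT value and a difference of 0.86 (standard error 0.25, adjusted p = 0.0701 in limma). It was called higher only without WT replicate 2. From transcript ends, Nop58 had 11.6, 23.9 and 29.1 FPKM in WT and 21.9, 24.7 and 33.7 FPKM in Hspa9 cKO. These groups overlapped, with a difference of 0.37 (adjusted p = 0.517). Rrp9, which binds the U3 snoRNA, differed by -0.23 without overlap of the groups (adjusted p = 0.147). Nop56, the other core protein, had no level because the tables file its starts under the snoRNA gene Snord57 in its introns. At its own exon edges Nop56 had 219, 243 and 246 FPKM in WT and 230.5, 215 and 190.5 FPKM in Hspa9 cKO, with overlapping groups (adjusted p = 0.311).

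The box H/ACA snoRNP, which converts uridine to pseudouridine, held the member with the smallest adjusted p. Nhp2, a core protein of that particle and of telomerase (chr11:51619735-51623714, plus strand), had 112, 110.1 and 105 FPKM in WT and 68.7, 72.7 and 75.5 FPKM in Hspa9 cKO. The groups were far apart, and the mean fell from 109 ± 3.63 to 72.3 ± 3.46 FPKM (SD, n = 3), 66.4% of WT (difference -0.58, standard error 0.07, adjusted p = 0.006 in limma). Gar1, another core protein, had 30.6, 25.2 and 31.8 FPKM in WT and 20.4, 3.04 and 21.2 FPKM in Hspa9 cKO. All Hspa9 cKO values of Gar1 were below WT, with replicate 2 far below the others. The difference of -1.27 (standard error 0.66) did not pass the test (limma, adjusted p = 0.245), nor did that of -0.46 without this library (adjusted p = 0.1). Transcript ends of Gar1 gave 28.0, 25.1 and 31.8 FPKM in WT and 2.1, 2.45 and 18.6 FPKM in Hspa9 cKO, a difference of -2.29 (adjusted p = 0.087). Dkc1, dyskerin, the pseudouridine synthase itself, had 36.1, 24.3 and 24.5 FPKM in WT and 27.1, 27.9 and 50.8 FPKM in Hspa9 cKO. The highest WT and the highest Hspa9 cKO library stood alone in Dkc1, and the groups overlapped (difference 0.27, adjusted p = 0.558).

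Of the 4 RNA polymerase I subunits, all had a difference below 0 (43.3% of all genes), with a median of -0.22. Limma called 0 of them, with 1 at an unadjusted p under 0.05. That gene was Polr1b, the second largest subunit, with 27.04, 23.2 and 25.5 FPKM in WT and 17.5, 19.7 and 13.6 FPKM in Hspa9 cKO. Its groups did not overlap, at means of 25.3 ± 1.91 and 16.9 ± 3.11 FPKM (SD, n = 3), and the difference of -0.56 missed the threshold (adjusted p = 0.0534 in limma). Polr1b was called lower after either rescaling and after trends over transcript length and GC content were removed. Polr1a, the largest subunit, Polr1c, shared with RNA polymerase III, and Polr1e differed by -0.21, -0.23 and -0.09, each with overlapping groups.

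Of 8 tested small subunit factors, 1 fell (5.61% of all genes) and 7 were below 0 (43.3% of all genes), with a median of -0.23. Groups did not overlap, with Hspa9 cKO lower, for 5 of the 8 (15.7% of all genes). A count of 1 among 8 is too small to tell from the share called lower among all genes. Utp4, a part of the complex that first binds the precursor RNA (chr8:106893636-106923088, plus strand), had 30.4, 30.2 and 30.9 FPKM in WT and 24.5, 23.8 and 23.3 FPKM in Hspa9 cKO. The spread of Utp4 within groups was small, and its mean fell to 78.3% of WT (difference -0.34, standard error 0.06, adjusted p = 0.0227 in limma). Utp15, of the same complex, differed by -0.50, and Wdr43, also of it, by -0.41. Neither passed the test, at adjusted p-values of 0.183 and 0.0804, though Wdr43 was called lower after trends over length and GC content were removed. Wdr43 was at 50.9 to 65.1 FPKM in WT and 39.4 to 48.4 in Hspa9 cKO.

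Rrp12, which acts in export of the subunits, was at 15.2 FPKM in WT replicate 2 and at 7.001 to 8.76 FPKM in the other 5 libraries, with a difference of -0.49 (adjusted p = 0.177 in limma), or -0.25 without that library. Ltv1, which joins the pre-small subunit before its last steps in the cytoplasm, differed by -0.13 and Nob1, the nuclease of the last cleavage there, by -0.03. Nop14 differed by -0.01 and Utp20 by 0.02, both nucleolar factors with overlapping groups. Tsr1, a late factor, is filed under the snoRNA gene Snord91a and had 16.5, 18.1 and 17.8 FPKM in WT and 14.4, 14.2 and 21.2 FPKM in Hspa9 cKO at its own edges. Heatr1 had a listed value of 0.0813 FPKM in 1 library, WT replicate 1, and was not tested.

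The large subunit factors were the group furthest below 0 among those with more than 3 tested genes, at a median of -0.40. All 8 tested were below 0 (43.3% of all genes), 6 of them with groups that did not overlap (15.7% of all genes). Of the 8, 2 fell (5.61% of all genes), a count too small to tell from that share. Bop1, which works in 1 complex with Pes1 and Wdr12 (chr15:76452989-76477277, minus strand), had 50.4, 52.4 and 53.9 FPKM in WT and 38.5, 40.2 and 38.0 FPKM in Hspa9 cKO. Its groups were tight and apart, at means of 52.2 ± 1.73 and 38.9 ± 1.13 FPKM (SD, n = 3), with a difference of -0.42 (standard error 0.07, adjusted p = 0.0141 in limma). Rrp1b, a nucleolar factor (chr17:32036100-32062865, plus strand), had 40.9, 39.3 and 38.3 FPKM in WT and 29.6, 27.5 and 27.8 FPKM in Hspa9 cKO. Rrp1b was again lower in every Hspa9 cKO library, at 71.7% of the WT mean (difference -0.47, standard error 0.07, adjusted p = 0.0119 in limma).

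The partners of Bop1 did not pass the test. Pes1 differed by -0.43 (adjusted p = 0.16), with 44.6 to 52.7 FPKM in WT, 41.1 and 42.5 FPKM in Hspa9 cKO replicates 1 and 3 and 27.7 FPKM in replicate 2, without which the difference was -0.24. Wdr12 ranged from 3.67 to 12.1 FPKM within Hspa9 cKO, and its difference of -0.29 had a standard error of 0.46. Ppan differed by -0.47 (adjusted p = 0.134), Wdr74 by -0.38 (0.253), Nop2, an RNA methyltransferase, by -0.22 (0.156) and Nip7 by -0.19 (0.292). Groups of Ppan, Wdr74 and Nop2 did not overlap. Nop16 had no start of its own in the tables; by transcript ends it had 16.1, 16.2 and 17.4 FPKM in WT and 13.6, 13.3 and 12.3 FPKM in Hspa9 cKO, and it was called lower there (difference -0.32, adjusted p = 0.0383 in limma).

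Transcript ends gave a further reading of the same transcripts. For some genes, such as Nhp2 and Ddx21, the summed ends equal the summed starts in each library, so the readings share their estimates and are no independent evidence. From ends, 28 of the genes were tested, of which 6 fell and 0 rose in limma (1 higher at an unadjusted p under 0.05), against 6.19% lower and 8.24% higher of 7027 genes, with a median of -0.31. The 6 were Npm1, Ddx21, Nhp2, Utp4, Bop1 and Nop16, and 5 of them were called from starts too. Fbl and Rrp1b, called from starts, had ends listed at only 0.635 to 1.44 and 0.149 to 2.68 FPKM and were not called there. With starts counted at a gene's own exon edges, 39 genes were tested and 8 fell, the 7 and Nop16, against 5.35% lower of 9303 genes; 0 rose in limma (3 at an unadjusted p under 0.05), against 7.45%.

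**Figure D4:**
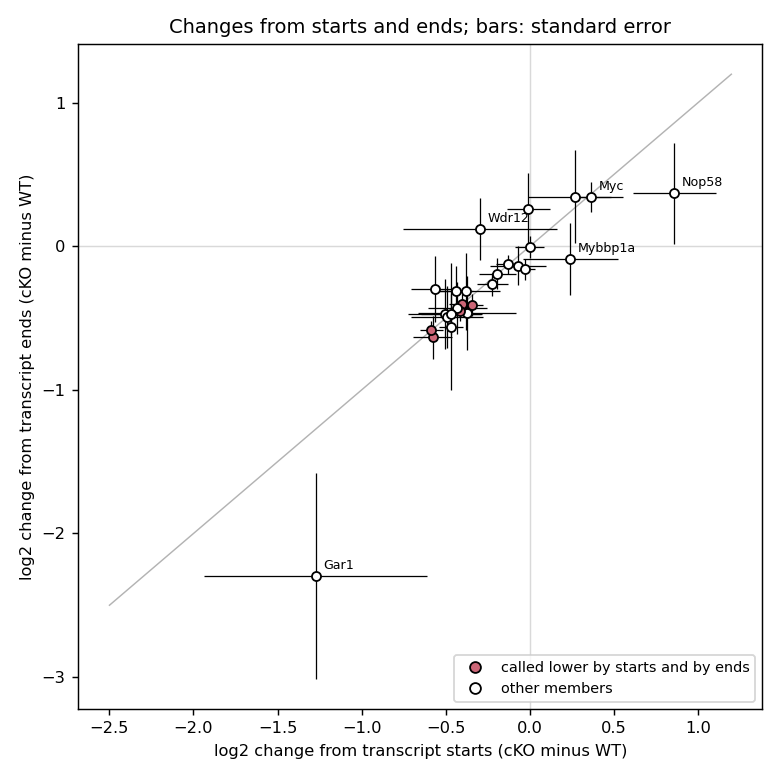
Difference between Hspa9 cKO and WT on the log2(FPKM + 1) scale from transcript starts (horizontal axis) and from transcript ends (vertical axis) for the 27 genes tested in both, with standard errors as bars, the line of equal values and the 5 genes called by both in red. Most points lie near the line, and Gar1, at -1.27 and -2.29, lies furthest from it.

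Alternative splicing of the genes was read from 61 pairs of inclusion and exclusion events filed under 24 of them. Most pairs filed under Nolc1 lie before its start, at the neighbouring gene Pprc1. An Rrp1b exon is counted under 2 event classes with the same values. Limma called 0 of the 61, against 0.317% of 9781 ratios over all genes, and 8 had an unadjusted p under 0.05 (952 over all genes). For several of these 8, 1 form was below 1 FPKM in all libraries, so that the ratio largely carries the level of the other form. That was the excluded form in an Npm1 exon (at most 0.000279 FPKM) and a Nop58 exon (at most 0.938 FPKM). In other Nop58 exons it was the included form (at most 0.908 and 0.215 FPKM). These 8 also hold an intron filed under Nolc1 that lies before the start of that gene. A later Max exon is among them too. Its included form has the same values as the transcripts with exon 2, while the excluded form was at 0.0935 to 0.119 FPKM.

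The wider pathway, 136 further genes of the Myc network and of ribosome biogenesis, had a median nearer to 0. Of 121 tested, 11 fell (9.09%, against 5.61% of all genes), and 0 rose in limma (3 were higher at an unadjusted p under 0.05), against 8.4% of all genes, with a median of -0.17 and 91 differences below 0. Groups did not overlap with Hspa9 cKO lower for 44 of them (15.7% of all genes), and in the other direction for 8 (23.2% of all genes). The group listed as snoRNP genes held 4 of the 11 among 7 tested: Snu13, Nop10, Zfp593 and Ruvbl1. Of these, Snu13 and Nop10 are core proteins of the particles, and Zfp593 and Ruvbl1 are not. Snu13, the box C/D protein that binds the guide RNA first, was at 117 to 136 FPKM in WT and 86.6 to 89.3 FPKM in Hspa9 cKO, a difference of -0.52 (adjusted p = 0.0102 in limma). Nop10, the fourth box H/ACA core protein beside Nhp2, Gar1 and Dkc1, was at 82.7 to 93.6 and 60.4 to 64.5 FPKM (-0.47, adjusted p = 0.0138). Snu13 was called without each library in turn, whereas Nop10 was not without Hspa9 cKO replicate 1 or 3.

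Among the other groups of the wider pathway, 3 of 44 small subunit genes fell (6.82%), 2 of 49 large subunit genes (4.08%), 1 of 13 RNA polymerase I genes (7.69%) and 1 of 8 Myc network genes (12.5%), counts that lie near the 5.61% of all genes or are too small to tell from it. Bysl, a small subunit factor, was at 14.3 to 14.6 FPKM in WT and 8.09 to 10.3 FPKM in Hspa9 cKO (-0.63, adjusted p = 0.0142), and was not called without WT replicate 1 or Hspa9 cKO replicate 1. Imp4, of the U3 snoRNP, differed by -0.32, Ddx18, a helicase of the large subunit, by -0.38, Nifk, which binds the antigen Ki-67, by -0.32, and Polr2h, shared by all nuclear RNA polymerases, by -0.33. Imp4, Nifk and Polr2h lost their call without any 1 of the 6 libraries, and Ddx18 kept it only without WT replicate 3. Mxd3, the Mxd repressor linked to S phase, had 12.9, 8.04 and 11.9 FPKM in WT and 5.23, 5.37 and 5.74 FPKM in Hspa9 cKO. Mxd3 thus fell (-0.86, adjusted p = 0.0274 in limma), a call kept only without WT replicate 2, while the 8 Myc network genes of the wider pathway had a median of 0.20.

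Lists that touch the same biology were set beside these values. Of 81 cytosolic ribosomal proteins, 63 had a value and were tested. Of these, 3 fell, which is 4.76% of them against 5.61% of all genes and so not above that share. Their median was -0.20, with 52 below 0 (82.5%, against 43.3%). Rps27l differed by -0.28, a call lost without any 1 of the 6 libraries, and Rpl37a by -0.30, a call kept only without WT replicate 2. In polyamine synthesis, 3 of 8 fell (5.61% of all genes) and 1 rose (8.4% of all genes). Among the 3 were Odc1, the first enzyme of the pathway and a known Myc target, and Srm, spermidine synthase (-0.74). Odc1 was at 99.4 to 104 FPKM in WT and 44.8 to 60.4 in Hspa9 cKO (difference -0.95, adjusted p = 0.0063 in limma). Oaz2, an antizyme that inhibits Odc1, rose by 0.37, a call lost without any 1 of the 6 libraries. Of 21 immediate early genes, 14 had a value and 9 were tested. Among these 9 genes 6 fell (5.61% of all genes), with a median of -1.08, led by Klf4 (-1.96) and Fosb (-2.26).

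Division genes were lower as well, with medians further below 0. Of 31 tested S phase genes 15 fell (5.61% of all genes), with a median of -0.42. Summed S phase levels were 2054 to 2111 FPKM in WT and 1395 to 1526 in Hspa9 cKO. Pcna differed by -0.77 and Mcm3 by -0.44. Of 30 mitosis genes 26 fell (5.61% of all genes), with a median of -0.92 and summed levels of 694 to 737 and 346 to 355 FPKM. Ube2c differed by -1.41 and Plk1 by -1.22. The DN3 markers moved the other way, with 7 of 13 higher, 1 lower and a median of 0.50. Il2ra, the gene of CD25, was higher, at 145 to 158 FPKM in WT and 367 to 383 FPKM in Hspa9 cKO. Dtx1 was higher too, at 26.0 to 31.2 and 75.7 to 79.4 FPKM. Tcf7 was the lower marker, at 414.5 to 595.6 and 262 to 316 FPKM. The call of Tcf7 was lost without WT replicate 3 and without Hspa9 cKO replicate 1, 2 or 3. The part of division genes and DN3 markers in the lower levels of the ribosome assembly genes was not tested.

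**Figure D5:**
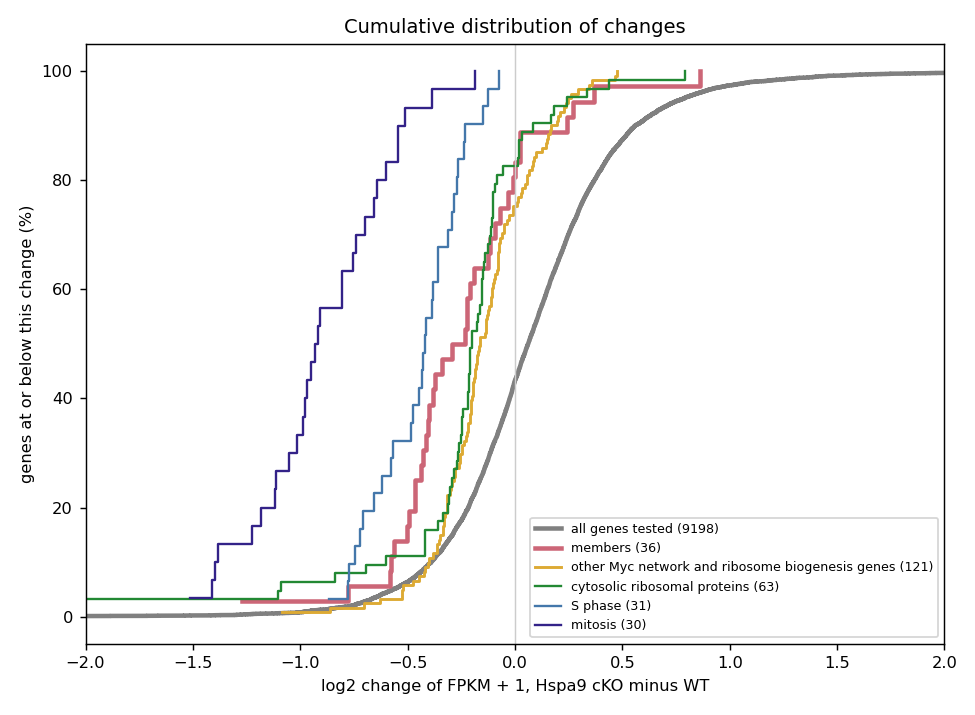
Cumulative share of genes (vertical axis, percent) by their difference between Hspa9 cKO and WT (horizontal axis, log2(FPKM + 1), drawn from -2 to 2). The curve of the 36 genes lies left of that of all 9198 genes around the middle (medians -0.26 and 0.06). Medians of the wider pathway (-0.17) and of ribosomal proteins (-0.20) lie between these, and those of S phase (-0.42) and mitosis genes (-0.92) further left.

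Markers of other cells were often not listed, and some were higher in Hspa9 cKO. Of 4 gamma-delta T cell markers all were listed, with sums of 70.0 to 90.4 FPKM in WT and 105 to 123 in Hspa9 cKO. Of 6 NK and innate lymphoid markers only Nkg7 was listed, at 29.6 to 32.9 and 57.5 to 61.6 FPKM; of 5 B cell markers only Cd79b, at 9.75 to 12.6 and 15.3 to 18.3 FPKM; and of 5 thymic epithelial markers only Epcam, at 27.2 to 29.1 and 36.7 to 43.0 FPKM. Of 6 markers of DN1 and DN2 cells 5 were listed, with sums of 6.60 to 8.41 and 6.67 to 8.40 FPKM. The sums were 9.74 to 16.8 and 14.8 to 16.3 FPKM for 5 of 6 myeloid markers, 145 to 159.8 and 169 to 171 FPKM for 2 of 4 dendritic markers, and 0 to 0.882 and 0.076 to 0.221 FPKM for 2 of 4 erythroid markers. Their part in the values of the ribosome assembly genes was not tested.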

How the data were processed

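RNA sequencing covered DN3 thymocytes of 3 WT and 3 Hspa9 cKO libraries, grouped by the sample titles. Per the labels' protocols, cDNA was random-primed after poly(A) selection or removal of ribosomal RNA, and they do not say which. Per the submitters' processing notes, cutadapt 1.9.1 was used and mm10 was the build. No aligner or assembler is named in the sources used here. Per the file headers, the authors deposited an FPKM value for each transcript-structure event, such as a start, an end or a skipped exon. Such a value rests on how reads were divided among isoforms. An unlisted event was set to 0, and such a 0 may reflect a failed estimate.

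Start events were summed by gene ID to give a level (ends where no start was listed, 372 of 12235 genes), after 35400 repeated entries were dropped. Genes that reached 1 FPKM in 3 libraries or more were tested in R 4.3.3 with limma 3.58.1, on log2(FPKM + 1) (trended, robust variances, two-sided), with Benjamini-Hochberg adjustment over all 9198 genes and a threshold of 0.05. Splicing was tested as log2((included + 1)/(skipped + 1)) for pairs that share both flanks and average 5 FPKM or more in total. The tests were also run on simulated data with independent normal noise, and no result here rests on that run. The members and gene lists were chosen with earlier results of these data known, so lists are described by counts and medians beside all genes. All 40 members are named. Values per library are given for called genes and for Myc, Max, Mxd4 and Mxi1. They are also given for genes over 0.3 from the median of their role. From the wider pathway, the 2 called genes of lowest adjusted p per role and direction are named, with Zfp593 and Ruvbl1 besides. From a comparison or marker list the same choice is named where at least 3 were called. Own-edge levels used GENCODE M21 on the same build. Alternatives were a pseudocount of 0.1, no filter, a filter of 5 FPKM, a replicate block, 2 rescalings, transcript ends, own exon edges, removal of trends over transcript length and GC content, a splicing total of 10 FPKM, and leaving out each library.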

Additional observations from a re-analysis of the deposited data

How the results depend on the processing

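The median of the members lay below 0 under every alternative run. It was -0.32 after rescaling by trimmed means, -0.31 by median ratios and -0.39 after removal of trends over length and GC content, and -0.32 to -0.21 with a library left out. For the wider pathway it was -0.23, -0.22 and -0.25 under the first 3, and -0.16 to -0.13 with a library left out. With the replicate number as a block, 0 members and 0 genes of the wider pathway were called lower (14 and 29 had an unadjusted p under 0.05 in limma), and over all genes 161 were called higher and 84 lower. Same-numbered libraries did not deviate together (correlations of 0.02, -0.02 and -0.02). The labels do not say whether equal numbers mark a shared batch, and with 3 libraries per group these correlations cannot settle it. Rescaling called 19 genes of the wider pathway lower by either method, and removal of trends called 25 of them and 819 genes overall. With a library left out, 1 to 5 members were called lower and 0 to 1 higher, 1 to 6 and 0 to 1 in the wider pathway, and 202 to 323 lower and 233 to 514 higher over all genes. Splicing ratios of members called were 0 in each alternative. Of 531 values of single members under alternatives, 466 kept their direction and side of the threshold, 34 lost and 5 gained a call, and 26 changed sign, 0 of them from or to a called value. After rescaling by trimmed means, by median ratios and after removal of trends, Mxd4 was at -0.040, -0.032 and -0.073 and Utp20 at -0.035, -0.029 and -0.12. From transcript ends, Mybbp1a was at -0.089, Nop14 at 0.26 and Wdr12 at 0.12. With a library left out, values ran from -0.082 to 0.11 for Mxd4, -0.048 to 0.053 for Mxi1, -0.25 to 0.067 for Ncl, -0.17 to 0.10 for Gnl3, -0.038 to 0.44 for Mybbp1a, -0.017 to 0.45 for Dkc1, -0.036 to 0.13 for Utp20 and -0.13 to 0.10 for Nop14. Depth is unknown, so no limit on low values can be given, and 3 libraries per group limit the precision.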
